A study of Mus musculus with 24 samples.

Results

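The TCA cycle, the entry of pyruvate into it and the malate-aspartate shuttle were described through 31 genes, chosen by name as the measured enzymes and carriers of these steps, out of 25369 genes listed in the files. All 31 passed the filter on low counts, which kept 14789 genes. Transcripts were counted in whole left quadriceps of mice aged 25 weeks, as RNA reads from the poly(A) fraction. On each of 4 genetic backgrounds, 3 mice with Lama2-CMD, a congenital muscular dystrophy from a mutation of Lama2, which encodes a laminin chain of the muscle basement membrane, were set against 3 healthy wild-type (WT) mice. The backgrounds were D2 (the DBA/2J strain), B6 (the C57BL/6J strain) and those labelled CMD-67 and CMD-87 (BXD-67 and BXD-87, here 67 and 87), recombinant inbred lines that carry B6 and D2 segments. The 8 groups were therefore B6 CMD and B6 WT, 67 CMD and 67 WT, 87 CMD and 87 WT, and D2 CMD and D2 WT, with 24 libraries in all. The labels name neither the Lama2 allele nor the parents of the WT mice.

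Pyruvate made in the cytosol crosses the inner mitochondrial membrane through the mitochondrial pyruvate carrier. The pyruvate dehydrogenase complex turns it into acetyl-CoA, which citrate synthase joins to oxaloacetate, and the cycle then oxidises the citrate in steps that load NADH and reduced flavin for the respiratory chain. The malate-aspartate shuttle moves the electrons of cytosolic NADH into the same organelle. In skeletal muscle these enzymes are most abundant in slow and fast oxidative fibres and least abundant in fast glycolytic fibres.

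Libraries held 32292613 to 51715975 exon reads. The lowest level of any of the 31 genes was 25.8 CPM (reads scaled to library size with TMM factors), for Pdp1 in library 16. Lama2 (ENSMUSG00000019899) was lower in CMD than in WT muscle in B6 (log2 fold change -1.0 ± 0.23 (SE), adjusted p = 0.00642) and 87 (-0.89 ± 0.23, adjusted p = 0.00939). It differed by 0.04 ± 0.23 in 67 (adjusted p = 0.912) and by -0.37 ± 0.23 in D2 (adjusted p = 0.244), so its level did not check the labels there. Reads of 4 Y-linked genes went against the sex label in 4 D2 libraries. D2 WT libraries 19 and 21, labelled male, held 1 and 0 such reads, and D2 CMD libraries 22 and 24, labelled female, held 4927 and 4858. By these reads all 3 D2 WT mice and 1 of 3 D2 CMD mice, library 23, were female. 87 CMD library 16 stood apart in the summed level of 6 stress and handling genes, 6284 CPM against 298 and 367 CPM in the other two 87 CMD libraries. These genes rose in CMD against WT muscle in B6 (4 of 6), 67 (4 of 6) and 87 (6 of 6), with a called count of 0 in D2 (1 of 6 at an unadjusted p under 0.05 in edgeR). Over all genes 8.07% rose in B6, 11.4% in 67, 11.5% in 87 and 11.2% in D2. For the 6 stress and handling genes the difference among strains was called for 0 (4 at an unadjusted p under 0.05 in edgeR, 4.67% of all genes called). Their part in the results on the 31 genes was not tested. D2 CMD library 23 had the highest TMM factor, 1.33. Skeletal muscle genes were abundant in every library, and markers of other cells are given with the fibre types below.

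Most genes of the set rose in CMD against WT muscle of 87 and most fell in CMD against WT muscle of D2, with fewer calls in B6 and 67, most of them higher in CMD. CMD was compared with WT in each strain by edgeR's quasi-likelihood test, adjusted over all genes by the Benjamini-Hochberg method with a threshold of 0.05. In 87, 23 of 31 genes rose and 1 fell, where 11.5% of all genes tested rose and 9.38% fell, and the median log2 fold change of the 31 was 0.76, against 0.01 over all genes. In B6, 12 rose and 1 fell (8.07% and 10.4% of all genes), with a median of 0.45 against 0.01. In 67, 9 rose and 1 fell (11.4% and 10.3% of all genes), with a median of 0.22 against 0.00384. In D2, 26 of 31 fell and 0 rose (9.03% and 11.2% of all genes; 29 of 31 had an unadjusted p under 0.05, each with a negative fold change), with a median of -0.61 against 0.03. The D2 fold change was below 0 for 31 of 31 genes and was the lowest of the 4 strains for 30 of 31. The 87 fold change was the highest of the 4 for 29 of 31.

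**Figure D1:**
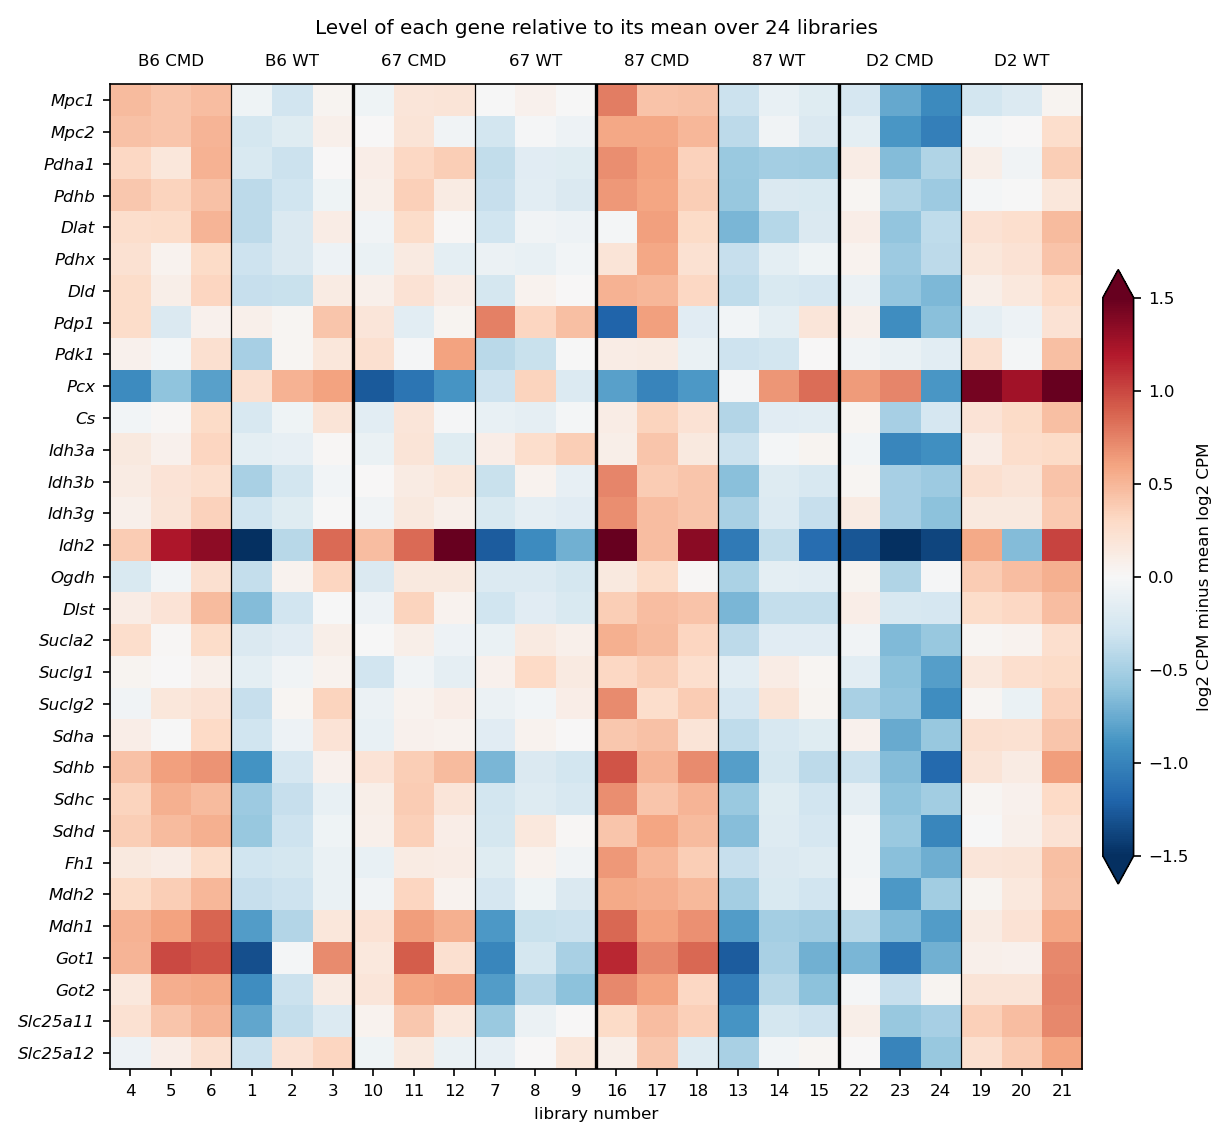
Heat map of the 31 genes (rows) in 24 libraries (columns, by number), coloured by log2 CPM minus the gene's mean log2 CPM over all libraries and saturated at 1.5 on either side. CMD libraries stand left of WT libraries in each strain: 87 CMD is red and D2 CMD blue for most rows, Pcx runs the other way in B6, 67 and 87, and D2 CMD library 22 is closer to D2 WT than libraries 23 and 24.

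The CMD effect itself differed among the 4 strains for 26 of 31 genes (F test over the strain by genotype terms in edgeR), where 4.67% of all genes passed. The exceptions were Pdp1, Pdk1, Pcx, Ogdh and Slc25a12. Set against single strains, the effect in D2 was lower than in 87 for 28 genes (4.88% of all genes), lower than in B6 for 23 (2.5%) and lower than in 67 for 7 (1%). Between 87 and 67, 87 and B6, and 67 and B6 the edgeR test called none of the 31, with 16, 2 and 2 genes at an unadjusted p under 0.05 (0.142%, 0.00676% and 0.00676% of all genes were called). In all, 20 genes rose in 87 and fell in D2, and 3 of them, Mdh1, Sdhb and Sdhc, rose in B6, 67 and 87 and fell in D2. These comparisons share the libraries of each strain, so they are not independent of each other.

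In B6 the count of 13 was 8 without library 1, 6 without library 2 and 7 without library 6, and in 67 the count of 10 was 2 to 6 without any 1 library of that strain. Single libraries carried part of the D2 result too. D2 CMD library 22 was the highest of its group for 29 of 31 genes, and its median log2 ratio to the D2 WT mean was -0.27, against -0.84 in library 23 and -0.85 in library 24. Libraries 23 and 24 lay below every D2 WT library for 31 of 31 genes, and library 22 for 27, so that 27 genes had no overlap (21.5% of all genes had CMD below WT in this way). The count of 26 was 12 without library 23, 16 without library 24, 13 without D2 WT library 21 and 16 with a term for sex from the Y-linked reads. It was 1, Suclg1, with that sex term and without library 23, where 30 of 31 fold changes were still below 0. By Y-linked reads D2 CMD libraries 22 and 24 were male and D2 WT libraries 19, 20 and 21 female. Sex and CMD could thus not be told apart within D2 without library 23, and the sex term rested on the other strains. With library 23 as the one D2 CMD library, 19 of 31 fell without libraries 22 and 24, and 26 of 31 fell among the 15 libraries that were female by their Y-linked reads. In both fits the other groups supply the spread, and library 23, one of the lowest for these genes, is assumed to vary like them. Without TMM scaling the median of all genes in D2 moved to 0.30, and the median of the 31 to -0.35 with 13 calls. The calls that held in every alternative run were Sdhc, Sdhd and Slc25a11 in B6, Mdh1 and Got2 in 67, Pdha1, Sdhb, Mdh1, Got1, Got2 and Pcx in 87, and Suclg1 in D2. The other calls of CMD against WT within a strain were lost in at least 1 alternative. Of the 26 calls of a difference among strains 18 held in every alternative, and of the 23 calls among the CMD groups given below 11 held. Differences between pairs of strains were also fitted under alternatives that held all strains, but their calls for the 31 genes were not compared there.

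**Figure D2:**
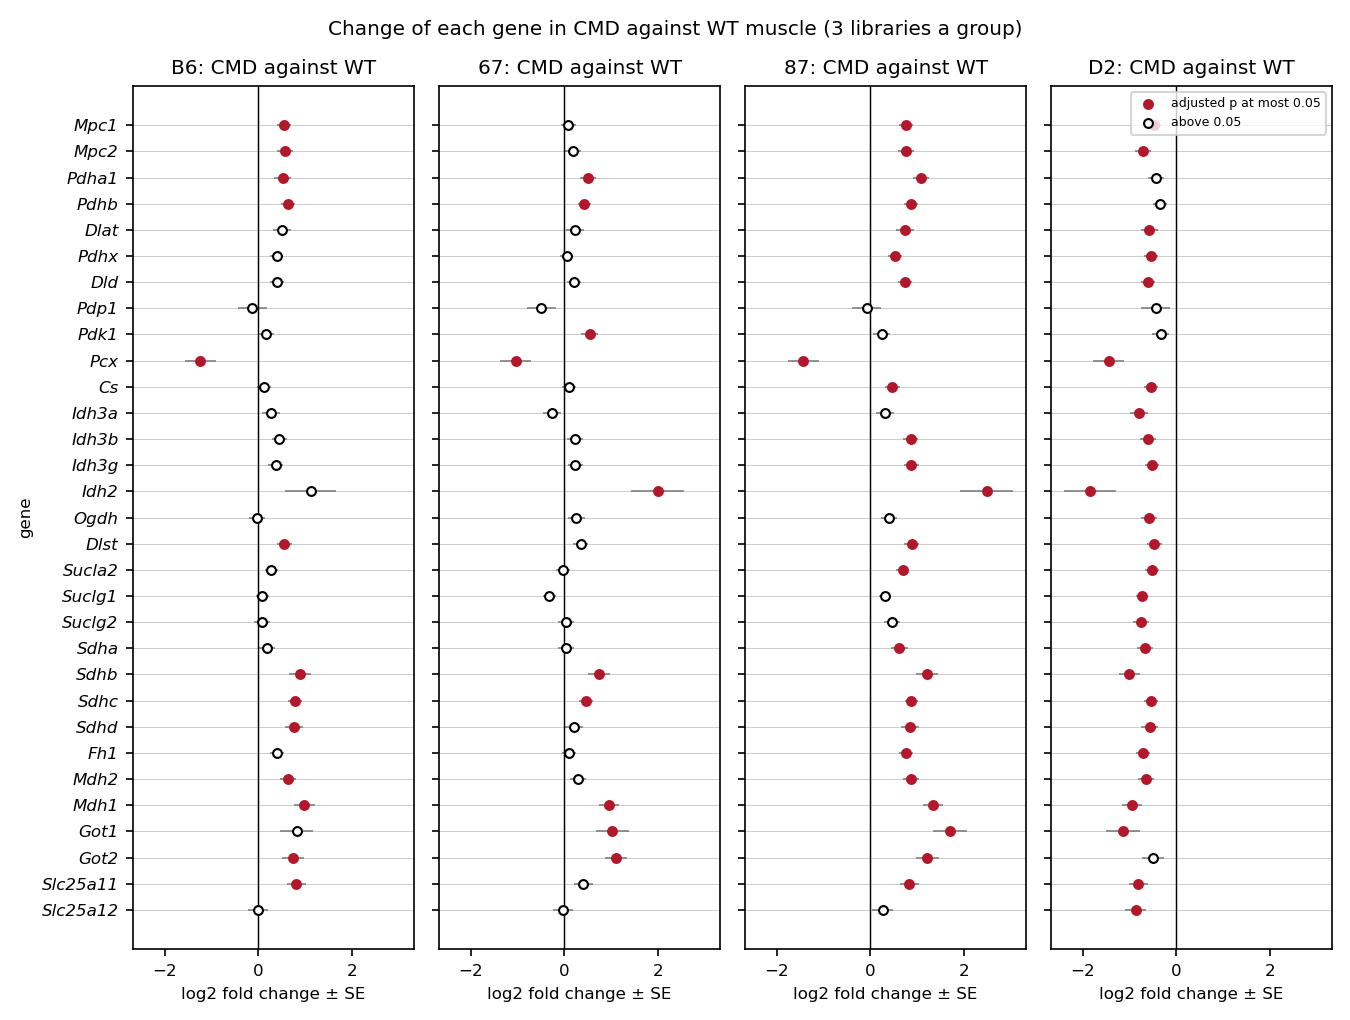
Log2 fold change of CMD against WT for each of the 31 genes (rows) in each strain (panels), with its SE as a bar. Filled points passed an adjusted p of 0.05: 13 genes in B6, 10 in 67, 24 in 87 and 26 in D2, and the D2 points all lie left of 0.

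WT libraries differed in these genes too. B6 WT library 3 and D2 WT library 21 were the highest of their groups for 31 of 31 genes, and the male WT libraries of B6, 67 and 87 (numbers 1, 7 and 13) were the lowest of theirs for 28, 27 and 29. The same 3 male libraries had the lowest Myh2, the myosin of fast oxidative fibres, of their groups. The other WT libraries of B6, 67 and 87 were female. In CMD, libraries 4 and 6 of B6 and 17 and 18 of 87 were male. Library 5 of B6, 16 of 87 and all 67 CMD libraries were female. Sex was thus not balanced between CMD and WT in any strain. With a term for sex from the Y-linked reads the counts of calls were 15 in B6, 8 in 67 and 25 in 87. Myh2 stood at 2549, 5684 and 2733 CPM in B6 CMD libraries, against 3.96, 527 and 3466 CPM in B6 WT libraries. In 67 it stood at 4036, 4741 and 8558 CPM in CMD libraries, against 13.2, 53.1 and 255 CPM in WT libraries. In 87 it stood at 1787, 1853 and 1667 CPM in CMD libraries, against 6.93, 155 and 19.2 CPM in WT libraries. CMD libraries were above all WT libraries in 67 and 87 and overlapped WT in B6. In D2 it stood at 1080.0, 4432 and 7066 CPM in CMD libraries, against 3971, 2406 and 3715 CPM in WT libraries, with no separation. The 10 slow fibre markers summed to 268 to 1745 CPM in D2 CMD libraries and to 813, 123.5 and 2865 CPM in D2 WT libraries 19, 20 and 21. In B6 they summed to 359 to 515 CPM in CMD and 64.4 to 216 CPM in WT libraries. Their sums were 434 to 954 CPM in 67 CMD and 34.5 to 57.1 CPM in 67 WT libraries. In 87 the sums were 292 to 610 CPM in CMD and 49.8 to 64.4 CPM in WT libraries. CMD was above WT without overlap in B6, 67 and 87 and overlapped WT in D2. By single gene, 2 of 10 rose and 1 fell in B6 (8.07% and 10.4% of all genes). In 67, 9 of 10 rose and in 87, 4 of 10 rose (11.4% and 11.5% of all genes). In D2 edgeR called 0 of 10 (1 at an unadjusted p under 0.05). The 10 fast glycolytic markers summed to less in CMD than in WT libraries of each strain, without overlap. In B6 the sums were 95728 to 127079 CPM in CMD and 182419 to 220310 CPM in WT libraries. In 67 CMD they were 97309 to 110392 CPM, against 213026 to 219608 CPM in 67 WT libraries. For 87 they were 104579 to 159552 CPM in CMD and 178648 to 194296.5 CPM in WT libraries. D2 CMD libraries held 88198 to 145557 CPM and D2 WT libraries 147219 to 169583.5 CPM. By single gene, 5 of 10 fell in B6, 8 in 67, 5 in 87 and 1 in D2. Over all genes 10.4% fell in B6, 10.3% in 67, 9.38% in 87 and 9.03% in D2, so the D2 count is near its share. Of the 10, 1 rose in 67 and 1 in 87 (11.4% and 11.5% of all genes). The 5 regenerating fibre markers summed to 58.3 to 436 CPM in CMD and 7.89 to 43.6 CPM in WT libraries. The 6 skeletal muscle markers summed to less in CMD than in WT libraries of each strain, without overlap. The sums were 54671 to 67474 CPM in B6 CMD and 77759 to 87280 CPM in B6 WT libraries, and 54339 to 63670 CPM in 67 CMD and 84320 to 90688 CPM in 67 WT libraries. They were 57092 to 74694 CPM in 87 CMD and 75112 to 92942 CPM in 87 WT libraries, and 51206 to 70054 CPM in D2 CMD and 70964 to 73252 CPM in D2 WT libraries. The part of muscle content in the results on the 31 genes was not tested.

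Some markers of other cells moved with CMD in some strains. Of 8 macrophage markers 4 rose in D2 (median log2 fold change 1.38), 3 rose in 67 (1.02) and 1 rose in 87 (-0.44). Over all genes 11.2% rose in D2, 11.4% in 67 and 11.5% in 87, so the 87 count is near its share. In B6 edgeR called 0 of these markers (2 at an unadjusted p under 0.05, median 0.58). They summed to 122 to 413 CPM in D2 CMD and 79 to 137 CPM in D2 WT libraries, 169 to 266 CPM in 67 CMD and 77.3 to 126 CPM in 67 WT libraries, and 96.1 to 175 CPM in 87 CMD and 98.6 to 178 CPM in 87 WT libraries. In B6 they summed to 171 to 230.1 CPM in CMD and 69.6 to 208 CPM in WT libraries. CMD was above WT without overlap in 67, and the other strains overlapped. Of 7 fibroblast and fibro-adipogenic markers 2 rose in 67 (median 1.04), 1 rose in D2 (0.51) and 2 fell in 87 (-0.80). Over all genes 11.4% rose in 67, 11.2% rose in D2 and 9.38% fell in 87. The D2 count is near its share. In B6 edgeR called 0 of these markers (3 at an unadjusted p under 0.05, median 0.47). They summed to 1029.8 to 1605 CPM in D2 CMD and 420.1 to 738 CPM in D2 WT libraries, and 138 to 648 CPM in 87 CMD and 623 to 807 CPM in 87 WT libraries. The sums were 869.5 to 1299.9 CPM in 67 CMD and 533 to 806 CPM in 67 WT libraries, and 1000.1 to 1089 CPM in B6 CMD and 438 to 989 CPM in B6 WT libraries. CMD was above WT in D2, 67 and B6 and overlapped WT in 87. Each marker had reads in every group, and the part of these cells in the results was not tested. Fewer fibres of a type and less of a transcript per fibre cannot be told apart in whole muscle, and the part of fibre type in the results was not tested.

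Per length, the levels of the genes spanned a wide range. In TPM, the authors' value scaled by exon length, B6 WT muscle held most of Mdh2, mitochondrial malate dehydrogenase, at 868 ± 92.1 (SD, n = 3). Cs (554 ± 92.5), Sdha (548 ± 104) and Sdhb (501 ± 167) followed and did not differ beyond their spread. The lowest were Pdhx (34.1 ± 3.68), Pdp1 (30.8 ± 4.4) and Pdk1 (27.2 ± 7.03), the last with Pdp1 within its spread. D2 WT muscle also held most of Mdh2 (1201 ± 139) and least of Pdk1 (33.4 ± 5.62) and Pdp1 (27.3 ± 2.95). Of the alternative beta subunits of succinyl-CoA ligase, the ADP-forming Sucla2 stood at 304 ± 31.8 TPM in D2 CMD and 355 ± 23.2 TPM in D2 WT muscle. The GDP-forming Suclg2 stood at 32 ± 4.52 TPM in D2 CMD and 43.9 ± 6.78 TPM in D2 WT muscle, so Sucla2 was the more abundant in both.

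Since most of the 31 genes moved together, the 250 bases upstream of their annotated starts were searched for 4 motifs of factors known to drive mitochondrial genes (RefSeq promoters, build GRCm38.p6, both strands). Promoters of 28 of the 31 genes matched by symbol. The estrogen-related receptor motif TNAAGGTCA was in 0 of 28 and in 1.30% of 27025 genes with a promoter, and the GABPA motif CCGGAAGT in 0 of 28 and in 3.23%. The NRF1 motif was in 3 of 28, Sdha, Sdhd and Sucla2, and in 4.23% of all and 5.84% of protein-coding genes. The SP1 motif GGGCGG was in 18 of 28 (64.3%), and in 35.4% of all and 45.8% of protein-coding genes. The 3 promoters with an NRF1 match are shown, with the match in capitals. That of Sdha, which encodes the flavoprotein of succinate dehydrogenase, lies on the minus strand at chr13:74350241-74350490, with matches that begin 98, 55 and 10 bases before the start. That of Sdhd, a membrane anchor of the same enzyme, lies on the minus strand at chr9:50603850-50604099, and that of Sucla2 on the plus strand at chr14:73552536-73552785. No SP1 match overlapped an NRF1 match in them.
Sdha: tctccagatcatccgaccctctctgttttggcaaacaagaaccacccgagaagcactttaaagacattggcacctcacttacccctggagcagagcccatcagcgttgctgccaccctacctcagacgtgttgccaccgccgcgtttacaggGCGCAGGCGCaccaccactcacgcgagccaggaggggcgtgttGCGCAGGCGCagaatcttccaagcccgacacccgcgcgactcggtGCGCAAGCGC
Sdhd: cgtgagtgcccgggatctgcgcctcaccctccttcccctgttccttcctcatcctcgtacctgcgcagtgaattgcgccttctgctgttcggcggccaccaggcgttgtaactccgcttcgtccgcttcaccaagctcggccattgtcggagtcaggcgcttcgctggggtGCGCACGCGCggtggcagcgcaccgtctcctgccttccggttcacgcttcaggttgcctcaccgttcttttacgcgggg
Sucla2: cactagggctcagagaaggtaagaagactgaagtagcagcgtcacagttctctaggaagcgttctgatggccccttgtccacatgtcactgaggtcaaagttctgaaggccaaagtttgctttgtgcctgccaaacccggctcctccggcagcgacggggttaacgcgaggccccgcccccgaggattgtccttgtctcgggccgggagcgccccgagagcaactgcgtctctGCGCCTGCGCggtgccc
Pcx, which fell where most of the other genes were higher in B6, 67 and 87 CMD muscle, has 2 annotated starts on the plus strand, at chr19:4510222-4510471 and chr19:4594069-4594318 (upstream bases). The first holds 1 SP1 match, in capitals, and the second holds none of the 4 motifs. Which start was used in this muscle was not analysed here.
Pcx first start: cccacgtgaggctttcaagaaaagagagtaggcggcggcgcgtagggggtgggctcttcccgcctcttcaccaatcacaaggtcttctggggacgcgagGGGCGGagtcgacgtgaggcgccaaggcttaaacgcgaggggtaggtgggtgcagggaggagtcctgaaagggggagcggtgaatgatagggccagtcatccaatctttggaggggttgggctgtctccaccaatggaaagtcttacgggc
Pcx second start: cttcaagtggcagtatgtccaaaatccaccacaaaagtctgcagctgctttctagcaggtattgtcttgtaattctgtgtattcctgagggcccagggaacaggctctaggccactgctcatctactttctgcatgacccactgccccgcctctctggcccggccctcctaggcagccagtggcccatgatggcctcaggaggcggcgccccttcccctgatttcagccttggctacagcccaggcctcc

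The pyruvate carrier genes rose in B6 and 87 and fell in D2. Mpc1 and Mpc2 encode the subunits of the carrier, which acts as a pair. Mpc1 stood at 313, 301 and 309.5 CPM in B6 CMD libraries, against 216, 185 and 233 CPM in B6 WT libraries. For Mpc1, 87 CMD libraries held 384, 304 and 305 CPM and 87 WT libraries 180.4, 208 and 199 CPM. Mpc1 in D2 measured 189.8, 133 and 116 CPM in CMD libraries and 186, 195 and 232 CPM in WT libraries. CMD and WT did not overlap in B6 or 87, and in D2 library 22 lay within the WT range. Its log2 fold change was 0.54 ± 0.16 in B6 (adjusted p = 0.0209), 0.76 ± 0.16 in strain 87 (adjusted p = 0.00235) and -0.48 ± 0.16 in D2 (adjusted p = 0.0346). Mpc2 stood at 214, 210.1 and 226 CPM in B6 CMD libraries, against 132, 139 and 166 CPM in B6 WT libraries. In 87, Mpc2 stood at 236, 236 and 224 CPM in CMD libraries, against 121, 152 and 136 CPM in WT libraries. For Mpc2, D2 CMD libraries held 143, 86.4 and 77.5 CPM and D2 WT libraries 155, 159 and 189 CPM. No group pair overlapped. Its log2 fold change was 0.57 ± 0.17 in B6 (adjusted p = 0.0274), 0.77 ± 0.17 in strain 87 (adjusted p = 0.00437) and -0.71 ± 0.17 in D2 (adjusted p = 0.00808). In 67 the fold changes of both were 0.09 and 0.17, neither past the threshold. The Mpc1 call in D2 ended without any 1 of libraries 20, 21, 23 and 24 (adjusted p 0.0553 to 0.137), and the B6 calls ended without library 2, 5 or 6 for both genes, and without library 1 for Mpc2 (0.0527 to 0.0986).

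All 5 genes of the pyruvate dehydrogenase complex rose in 87, 2 rose in B6 and in 67, and 3 fell in D2. Pdha1 and Pdhb encode the subunits that decarboxylate pyruvate. They rose in B6, 67 and 87 and passed no threshold in D2. Pdha1 stood at 1030.3, 964 and 806 CPM in 87 CMD libraries, against 432, 447 and 443 CPM in 87 WT libraries, a log2 fold change of 1.08 ± 0.17 (adjusted p = 0.000462). Pdha1 in D2 measured 690.3, 407 and 464 CPM in CMD libraries and 679, 616 and 821 CPM in WT libraries, a log2 fold change of -0.44 ± 0.17 (adjusted p = 0.0775). Its fold changes in B6 and 67 were 0.52 ± 0.17 and 0.50 ± 0.17 (adjusted p = 0.0436 and 0.0435). Pdha1 had 94.3% of its reads at a unique place, the lowest share of the 31, and its calls in B6 and 67 ended without single libraries. Pdhb stood at 358, 344 and 296 CPM in 87 CMD libraries, against 154, 197 and 195 CPM in 87 WT libraries, a log2 fold change of 0.87 ± 0.15 (adjusted p = 0.000648). In B6 and 67 it changed by 0.64 ± 0.15 and 0.43 ± 0.15 (adjusted p = 0.00709 and 0.0429), and in D2 by -0.35 ± 0.15 (adjusted p = 0.0985). The 67 call of Pdhb ended without any 1 library of that strain and without several of other strains (adjusted p 0.0506 to 0.171). In each of B6, 67 and 87 the CMD libraries of both genes lay above the WT libraries, while D2 CMD library 22 lay within the D2 WT range.

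The genes of the core and of the last enzyme of the complex rose in 87 and fell in D2. Dlat encodes the acetyl transferase, Pdhx the protein that anchors dihydrolipoamide dehydrogenase, and Dld that dehydrogenase, which the oxoglutarate complex shares. Dlat stood at 166, 259.8 and 206 CPM in 87 CMD libraries, against 105, 126 and 145 CPM in 87 WT libraries. In D2, Dlat stood at 181, 112 and 129.8 CPM in CMD libraries, against 197, 200.5 and 235 CPM in WT libraries. Pdhx stood at 85.1, 111 and 87.5 CPM in 87 CMD libraries, against 58.5, 67.4 and 70.9 CPM in 87 WT libraries. All of these groups were apart, the 87 CMD libraries above and the D2 CMD libraries below their WT libraries. In D2 Pdhx stood at 77.1, 51.1 and 56.4 CPM in D2 CMD libraries, against 83.8, 86.2 and 100 CPM in D2 WT libraries. Dld stood at 316, 312 and 274 CPM in 87 CMD libraries, against 169, 188 and 185 CPM in 87 WT libraries. For Dld, D2 CMD libraries held 207, 147 and 138 CPM and D2 WT libraries 235, 247 and 272 CPM. Again no D2 CMD library reached a D2 WT library. The log2 fold changes in 87 were 0.75 ± 0.19 for Dlat, 0.53 ± 0.14 for Pdhx and 0.73 ± 0.15 for Dld (adjusted p = 0.00937, 0.0144 and 0.00254). In D2 they were -0.58 ± 0.19 for Dlat, -0.55 ± 0.14 for Pdhx and -0.61 ± 0.15 for Dld (adjusted p = 0.0368, 0.013 and 0.00948). The D2 call of Dlat ended without library 20, 21, 23 or 24 and that of Pdhx without library 23 (adjusted p = 0.0517). The 87 call of Pdhx ended without library 13 or 17 (0.0653 and 0.0504).

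Of the control genes of the complex, 1 rose in 67 and neither passed elsewhere. Pdp1 encodes a phosphatase that switches the complex on, and Pdk1 a kinase that switches it off. Pdp1 was called in no strain: its log2 fold change was -0.13 ± 0.31 in B6, -0.49 ± 0.31 in strain 67, -0.08 ± 0.31 in strain 87 and -0.44 ± 0.31 in D2. Its 87 CMD libraries were far apart, at 25.8, 90.9 and 52.6 CPM. Pdk1 rose in 67, where it stood at 84.6, 70.5 and 108 CPM in 67 CMD libraries, against 53.8, 56.6 and 70.9 CPM in 67 WT libraries, a log2 fold change of 0.54 ± 0.18 (adjusted p = 0.0352). Library 11 overlapped the 67 WT libraries, and the call ended without library 7, 8, 10 or 12 (adjusted p 0.0634 to 0.195). In B6, 87 and D2 Pdk1 changed by 0.17 ± 0.18, 0.24 ± 0.18 and -0.34 ± 0.18, none past the threshold. The difference among strains had adjusted p = 0.805 for Pdp1 and 0.141 for Pdk1.

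Pcx was the one gene called in the same direction in all 4 strains, and it fell. It encodes pyruvate carboxylase, which makes oxaloacetate from pyruvate to refill the cycle. It stood at 67.6, 86 and 74.4 CPM in B6 CMD libraries, against 154, 187 and 199 CPM in B6 WT libraries. Pcx in 67 measured 54.7, 61.2 and 70.7 CPM in CMD libraries and 106, 165 and 113 CPM in WT libraries. In 87, Pcx stood at 73.9, 65.5 and 71.6 CPM in CMD libraries, against 129, 207 and 234 CPM in WT libraries. The CMD libraries lay below all WT libraries in each of these strains. For Pcx, D2 CMD libraries held 204, 217 and 71.2 CPM and D2 WT libraries 353, 313 and 679 CPM, again with no overlap, though library 24 stood far below the other D2 CMD libraries and library 21 far above the other D2 WT libraries. For Pcx the log2 fold changes were -1.24 ± 0.33 in B6 (adjusted p = 0.0154), -1.04 ± 0.33 in strain 67 (adjusted p = 0.0311), -1.43 ± 0.33 in strain 87 (adjusted p = 0.00551) and -1.45 ± 0.33 in D2 (adjusted p = 0.00603). The effect was not shown to differ among strains (adjusted p = 0.865). Pcx was also higher in D2 than in B6 in both genotypes, by 1.11 ± 0.33 between D2 CMD and B6 CMD (adjusted p = 0.0223) and 1.32 ± 0.33 between D2 WT and B6 WT (adjusted p = 0.0179). The B6 call ended without library 2, 3 or 4 (adjusted p 0.0514 to 0.0583) and the 67 call without library 8, 9, 10, 11 or 12 (0.052 to 0.127). Adipoq, the adipocyte hormone that marks fat in whole muscle, stood at 169, 197 and 4.54 CPM in D2 CMD libraries, against 53.4, 7.99 and 4.85 CPM in D2 WT libraries. The 7 adipocyte markers together summed to 1709, 1734 and 133 CPM in D2 CMD libraries, against 627, 174 and 174 CPM in D2 WT libraries. The part of fat cells in the Pcx result was not tested.

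**Figure D3:**
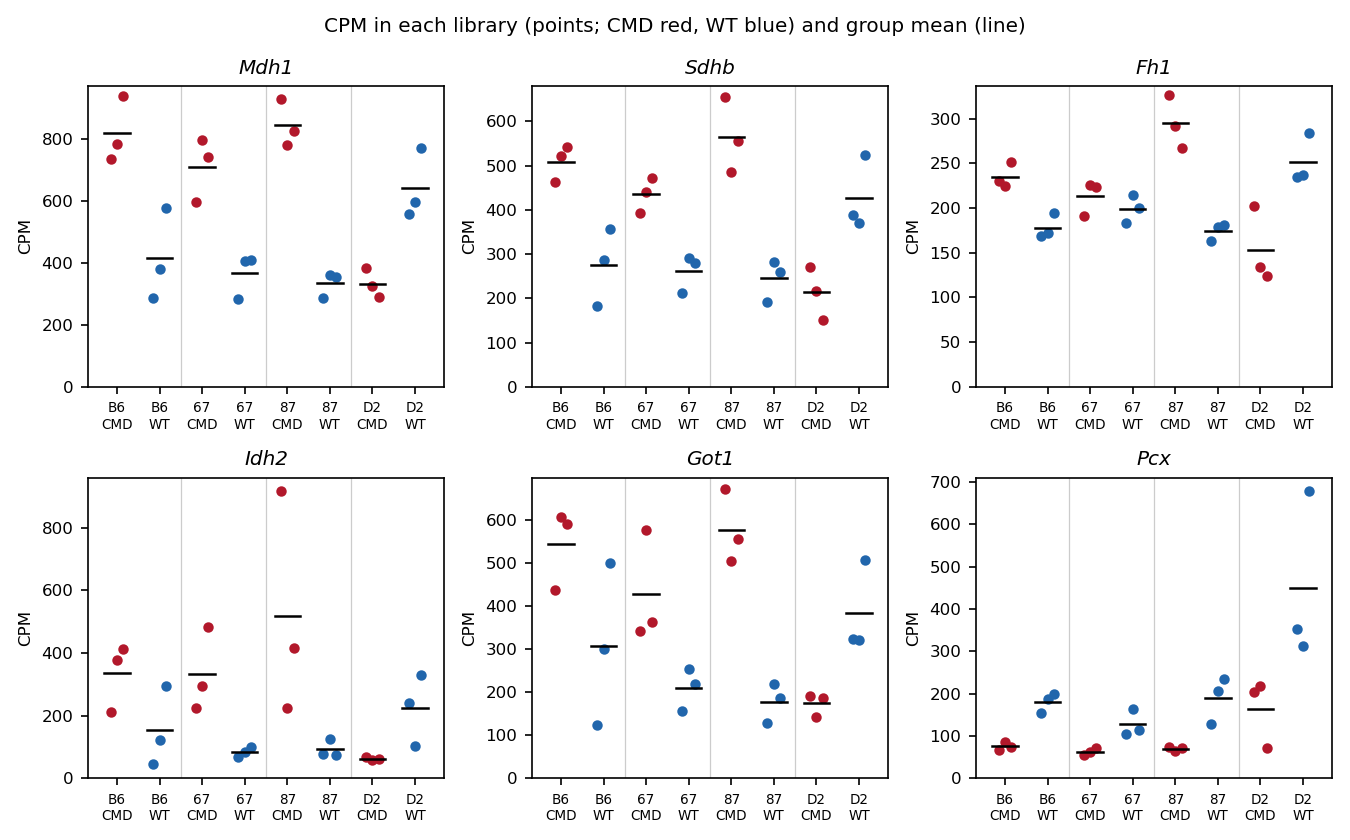
CPM of 6 genes in each library (points, CMD red and WT blue) with the group mean as a line, by strain on the x axis. Mdh1 and Sdhb are above WT in B6, 67 and 87 CMD and below WT in D2 CMD, Fh1 and Idh2 have D2 CMD points below all D2 WT points, Got1 is like Mdh1 except that B6 CMD and B6 WT overlap, and Pcx is below WT in all 4 strains.

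At the head of the cycle, 4 of 5 genes rose in 87, 1 rose in 67 and 5 fell in D2. In B6 the fold changes of the 5 ran between 0.13 and 1.12 and did not pass. Cs encodes citrate synthase. It stood at 863, 1012 and 929 CPM in 87 CMD libraries, against 590.1, 715 and 719.7 CPM in 87 WT libraries. Cs in D2 measured 815, 567 and 670.3 CPM in CMD libraries and 923, 979.6 and 1095 CPM in WT libraries. Neither pair overlapped, and the log2 fold changes were 0.47 ± 0.15 in strain 87 (adjusted p = 0.0342) and -0.55 ± 0.15 in D2 (adjusted p = 0.0175). Both calls were fragile: the 87 call ended without library 13, 14, 15, 17 or 18 and the D2 call without library 21 or 23 (adjusted p 0.0504 to 0.142 and 0.0554 to 0.0725). Idh3a, Idh3b and Idh3g encode the subunits of NAD-dependent isocitrate dehydrogenase. Idh3b stood at 687, 537 and 549.6 CPM in 87 CMD libraries, against 267, 362 and 349.9 CPM in 87 WT libraries. In D2, Idh3b stood at 419.6, 293 and 282 CPM in CMD libraries, against 488, 474 and 556 CPM in WT libraries. For Idh3b the log2 fold changes were 0.86 ± 0.17 in strain 87 and -0.61 ± 0.17 in D2 (adjusted p = 0.00173 and 0.0159). Idh3g stood at 417, 354 and 343 CPM in 87 CMD libraries, against 183, 222 and 202 CPM in 87 WT libraries. For Idh3g, D2 CMD libraries held 279.6, 182 and 167 CPM and D2 WT libraries 284, 284 and 336 CPM. For Idh3g the log2 fold changes were 0.87 ± 0.16 in strain 87 and -0.52 ± 0.16 in D2 (adjusted p = 0.00105 and 0.0259). The D2 calls of Idh3b and Idh3g ended without library 21, 23 or 24 (adjusted p 0.0515 to 0.1). Idh3a, the catalytic subunit, fell in D2 (-0.80 ± 0.19, adjusted p = 0.00823), with 491, 257 and 266 CPM in D2 CMD libraries, against 546, 607 and 615 CPM in D2 WT libraries. Libraries 23 and 24 were at about the same low level and library 22 stood nearer to WT. Idh3a changed by 0.27 ± 0.19 in B6, -0.27 ± 0.19 in strain 67 and 0.32 ± 0.19 in strain 87, none past the threshold. The difference of its effect among strains (adjusted p = 0.0423) did not hold without any 1 of 9 libraries (0.0504 to 0.0825), and that of Cs (adjusted p = 0.0366) without any 1 of 6 (0.0507 to 0.0994).

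Idh2, the NADP-dependent isocitrate dehydrogenase of mitochondria, had the largest called changes of the 31 in 67, 87 and D2. It stood at 224, 294 and 483 CPM in 67 CMD libraries, against 68.4, 84.9 and 98.6 CPM in 67 WT libraries. Idh2 in 87 measured 916, 225 and 416 CPM in CMD libraries and 78, 127 and 73.7 CPM in WT libraries. In D2, Idh2 stood at 67, 57.7 and 62.8 CPM in CMD libraries, against 241, 104 and 329.9 CPM in WT libraries. CMD libraries were above WT in 67 and 87 and below WT in D2, and library 16 was far above the other 87 CMD libraries. For Idh2 the log2 fold changes were 1.99 ± 0.56 in strain 67 (adjusted p = 0.0163), 2.48 ± 0.57 in strain 87 (adjusted p = 0.00483) and -1.85 ± 0.56 in D2 (adjusted p = 0.0253). For Idh2, B6 CMD libraries held 212, 378 and 414 CPM and B6 WT libraries 45.7, 122 and 295 CPM, with library 4 inside the wide WT range. The D2 effect minus the 87 effect was -4.33 ± 0.79 (adjusted p = 0.00225). The D2 CMD libraries were close to each other, and the D2 WT libraries were far apart. The D2 call ended without library 21, 23 or 24 (adjusted p 0.0717 to 0.0986), and the 67 call without library 7, 8 or 12 (0.0509 to 0.0702).

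Of the 5 genes between oxoglutarate and succinate, 2 rose in 87, 1 rose in B6 and 5 fell in D2. In 67 their fold changes ran between -0.32 and 0.34 and did not pass. Ogdh and Dlst encode the decarboxylating and the transferase enzymes of the oxoglutarate dehydrogenase complex. Dlst stood at 288, 308 and 370.4 CPM in B6 CMD libraries, against 170.4, 218 and 267 CPM in B6 WT libraries. Dlst in 87 measured 346, 369 and 358 CPM in CMD libraries and 166, 208 and 208 CPM in WT libraries. In D2, Dlst stood at 286, 227 and 225 CPM in CMD libraries, against 324, 331 and 368 CPM in WT libraries. The groups were apart in all 3 strains, and the log2 fold changes were 0.56 ± 0.16 in B6, 0.88 ± 0.16 in strain 87 and -0.47 ± 0.16 in D2 (adjusted p = 0.0199, 0.000973 and 0.0406). Ogdh fell in D2, with a log2 fold change of -0.59 ± 0.18 (adjusted p = 0.0239), with 974, 693 and 936 CPM in D2 CMD libraries, against 1238, 1310.5 and 1375 CPM in D2 WT libraries. The difference of its effect among strains did not pass (adjusted p = 0.065). The D2 calls of Dlst and Ogdh ended without library 20, 21 or 23, and that of Dlst also without library 24 (adjusted p 0.0545 to 0.113). The B6 call of Dlst ended without library 1, 2 or 6 (0.0647 to 0.0933).

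Succinyl-CoA ligase is built from the alpha subunit Suclg1 and either beta subunit, Sucla2 or Suclg2. Sucla2 stood at 616, 591 and 535 CPM in 87 CMD libraries, against 325, 378 and 379 CPM in 87 WT libraries. For Sucla2, D2 CMD libraries held 413, 269 and 288 CPM and D2 WT libraries 434, 444 and 507 CPM. With no overlap, the log2 fold changes were 0.69 ± 0.15 in strain 87 and -0.52 ± 0.15 in D2 (adjusted p = 0.0034 and 0.0206). The D2 call ended without library 21, 23 or 24 (adjusted p 0.0597 to 0.0744). Suclg1 and Suclg2 fell in D2 and were called in no other strain. Suclg1 stood at 211, 155 and 134 CPM in D2 CMD libraries, against 264, 281 and 288 CPM in D2 WT libraries, a log2 fold change of -0.74 ± 0.14 (adjusted p = 0.0014). Suclg2 stood at 54.3, 50.3 and 39.8 CPM in D2 CMD libraries, against 77.7, 70.7 and 96.7 CPM in D2 WT libraries, a log2 fold change of -0.76 ± 0.17 (adjusted p = 0.00561). For both genes each D2 CMD library lay below each D2 WT library. The effect differed among the 4 strains for Sucla2 and Suclg1 (adjusted p = 0.00929 and 0.00929) and for Suclg2 (adjusted p = 0.0243, but 0.0868 without library 21 and 0.0745 without library 24).

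From succinate to oxaloacetate, 6 of 6 genes rose in 87, 4 rose in B6, 2 rose in 67 and 6 fell in D2. Sdhb, the iron-sulfur subunit of succinate dehydrogenase (complex II of the respiratory chain), stood at 463, 522 and 542 CPM in B6 CMD libraries, against 184, 287 and 358 CPM in B6 WT libraries. Sdhb in 67 measured 394, 439.7 and 472 CPM in CMD libraries and 211, 292 and 281 CPM in WT libraries. In 87, Sdhb stood at 655, 486 and 557 CPM in CMD libraries, against 193, 282 and 260.4 CPM in WT libraries. The CMD libraries were above all WT libraries in each of these strains. For Sdhb, D2 CMD libraries held 272, 217 and 151 CPM and D2 WT libraries 388, 371 and 525 CPM, with the CMD libraries below all WT libraries. For Sdhb the log2 fold changes were 0.88 ± 0.23 in B6 (adjusted p = 0.0146), 0.74 ± 0.23 in strain 67 (adjusted p = 0.0302), 1.21 ± 0.24 in strain 87 (adjusted p = 0.00171) and -1.0 ± 0.23 in D2 (adjusted p = 0.00653). The effect differed among strains (adjusted p = 0.00401), and the D2 effect minus that in 87, B6 and 67 was -2.21 ± 0.33, -1.89 ± 0.33 and -1.74 ± 0.33 (adjusted p = 0.000968, 0.00504 and 0.0148). The B6 call ended without library 1 (adjusted p = 0.0568) and the 67 call without library 7, 9, 11 or 12 (0.067 to 0.132).

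Sdhc and Sdhd anchor the enzyme in the membrane. Sdhc stood at 352, 404 and 388 CPM in B6 CMD libraries, against 191, 219 and 258 CPM in B6 WT libraries. Sdhc in 67 measured 297, 364 and 316 CPM in CMD libraries and 231, 245 and 236 CPM in WT libraries. In 87, Sdhc stood at 454, 371 and 396 CPM in CMD libraries, against 189, 246 and 229.6 CPM in WT libraries. As with Sdhb, CMD was above WT without overlap in all 3. For Sdhc, D2 CMD libraries held 255, 184 and 194 CPM and D2 WT libraries 285, 292 and 342 CPM, with CMD below WT. For Sdhc the log2 fold changes were 0.77 ± 0.15 in B6, 0.46 ± 0.15 in strain 67, 0.88 ± 0.15 in strain 87 and -0.54 ± 0.15 in D2 (adjusted p = 0.00229, 0.0325, 0.00063 and 0.0158), and differed among strains (adjusted p = 0.00347). Sdhd stood at 269, 289 and 301 CPM in B6 CMD libraries, against 140.3, 167 and 198 CPM in B6 WT libraries. Sdhd in 87 measured 278, 313 and 288 CPM in CMD libraries and 133, 181 and 175 CPM in WT libraries. In D2, Sdhd stood at 202, 141 and 106 CPM in CMD libraries, against 207, 218 and 241 CPM in WT libraries. The groups did not overlap in these strains. For Sdhd the log2 fold changes were 0.76 ± 0.19 in B6, 0.84 ± 0.19 in strain 87 and -0.57 ± 0.19 in D2 (adjusted p = 0.0103, 0.00401 and 0.0371). The D2 calls of both ended without library 21, 23 or 24, and that of Sdhd also without library 20 (adjusted p 0.0565 to 0.143). The 67 call of Sdhc ended without library 7, 8, 9, 11 or 12 (0.0617 to 0.135).

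Sdha, the catalytic flavoprotein, stood at 1053, 1076 and 911 CPM in 87 CMD libraries, against 608, 672 and 701 CPM in 87 WT libraries. For Sdha, D2 CMD libraries held 833, 468 and 535 CPM and D2 WT libraries 935, 930.4 and 1062 CPM. The 87 CMD libraries were above and the D2 CMD libraries below their WT libraries, with log2 fold changes of 0.62 ± 0.18 in strain 87 and -0.67 ± 0.18 in D2 (adjusted p = 0.0183 and 0.0126). In B6 and 67 Sdha changed by 0.18 ± 0.18 and 0.04 ± 0.18, while Sdhb changed by 0.88 ± 0.23 and 0.74 ± 0.23; the difference between the subunits was not tested. The 87 call of Sdha ended without library 13 (adjusted p = 0.0653). Fh1, which encodes fumarase, stood at 326, 292 and 267 CPM in 87 CMD libraries, against 164, 179 and 182 CPM in 87 WT libraries. Fh1 in D2 measured 202, 134 and 124 CPM in CMD libraries and 234, 237 and 284 CPM in WT libraries. For Fh1 the log2 fold changes were 0.76 ± 0.15 in strain 87 and -0.71 ± 0.15 in D2 (adjusted p = 0.00193 and 0.00354), and 0.40 ± 0.15 in B6 and 0.10 ± 0.15 in strain 67, where it passed no threshold. The strains differed in its effect (adjusted p = 0.00401). In B6, Fh1 stood at 229.7, 225 and 251 CPM in CMD libraries, against 168, 172 and 194 CPM in WT libraries, and in 67 192, 225 and 223 CPM in 67 CMD libraries, against 183, 215 and 199.9 CPM in 67 WT libraries. The B6 libraries did not overlap and the 67 libraries did. Mdh2, mitochondrial malate dehydrogenase, stood at 913, 967 and 1060.3 CPM in B6 CMD libraries, against 587, 605 and 697 CPM in B6 WT libraries. For Mdh2, 87 CMD libraries held 1109, 1091 and 1049 CPM and 87 WT libraries 525, 638 and 612 CPM. Mdh2 in D2 measured 739, 411 and 520.2 CPM in CMD libraries and 770.3, 834 and 1017 CPM in WT libraries. No pair of these groups overlapped. For Mdh2 the log2 fold changes were 0.64 ± 0.17 in B6, 0.87 ± 0.17 in strain 87 and -0.65 ± 0.17 in D2 (adjusted p = 0.0162, 0.00189 and 0.0135). The D2 call ended without library 21 or 23 (0.0531 and 0.0572), and the B6 call without library 2 or 6 (0.0612 and 0.0578).

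The malate-aspartate shuttle rose in B6 (3 of 5 genes), 67 (3) and 87 (4) and fell in D2 (4). Mdh1, the cytosolic malate dehydrogenase, had the smallest p of the 31 for a difference among strains (adjusted p = 0.00218). It stood at 737, 782 and 938 CPM in B6 CMD libraries, against 287, 379.6 and 576 CPM in B6 WT libraries. In 67, Mdh1 stood at 595, 796 and 741 CPM in CMD libraries, against 282, 407 and 410.3 CPM in WT libraries. For Mdh1, 87 CMD libraries held 930.1, 780.4 and 827 CPM and 87 WT libraries 287, 360.4 and 356 CPM. In all 3 strains each CMD library was above each WT library. Mdh1 in D2 measured 384, 325 and 288 CPM in CMD libraries and 559, 595 and 771 CPM in WT libraries, the reverse order, also without overlap. For Mdh1 the log2 fold changes were 0.98 ± 0.22 in B6 (adjusted p = 0.00566), 0.96 ± 0.22 in strain 67 (adjusted p = 0.00476), 1.34 ± 0.22 in strain 87 (adjusted p = 0.000506) and -0.95 ± 0.22 in D2 (adjusted p = 0.00584). The D2 effect minus that in 87, 67 and B6 was -2.29 ± 0.31, -1.90 ± 0.31 and -1.93 ± 0.31 (adjusted p = 0.000745, 0.0066 and 0.00309).

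Got1 and Got2 encode the cytosolic and the mitochondrial aspartate aminotransferase. Got1 stood at 341, 576 and 363 CPM in 67 CMD libraries, against 156, 254 and 218 CPM in 67 WT libraries. In 87, Got1 stood at 670.0, 504 and 554 CPM in CMD libraries, against 129, 219 and 186 CPM in WT libraries. For Got1, D2 CMD libraries held 191, 143 and 186 CPM and D2 WT libraries 323, 321 and 506 CPM. The groups were apart in these 3 strains. For Got1 the log2 fold changes were 1.03 ± 0.35 in strain 67, 1.70 ± 0.36 in strain 87 and -1.14 ± 0.35 in D2 (adjusted p = 0.0437, 0.00285 and 0.0288). Got1 in B6 measured 436, 606 and 589.9 CPM in CMD libraries and 123, 299 and 500.0 CPM in WT libraries, where WT library 3 lay above CMD library 4. The D2 call of Got1 ended without library 21, 23 or 24 (adjusted p 0.0622 to 0.113), and the 67 call without any 1 library of that strain and without several of other strains (0.0502 to 0.192). Got2 stood at 544, 712 and 722 CPM in B6 CMD libraries, against 257, 393 and 531 CPM in B6 WT libraries. In 67, Got2 stood at 553, 739.8 and 750.5 CPM in CMD libraries, against 274, 361 and 319.6 CPM in WT libraries. For Got2, 87 CMD libraries held 803, 742 and 606 CPM and 87 WT libraries 239, 367 and 318 CPM. It rose in all 3, the log2 fold changes being 0.74 ± 0.23 in B6, 1.10 ± 0.24 in strain 67 and 1.22 ± 0.24 in strain 87 (adjusted p = 0.0335, 0.0033 and 0.00166). Got2 in D2 measured 482, 384 and 504 CPM in CMD libraries and 561, 557 and 821 CPM in WT libraries, a difference of -0.50 ± 0.23 that did not pass (adjusted p = 0.133). The B6 call ended without library 1, 2, 5 or 6 (0.0944 to 0.128).

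The shuttle has a pair of carriers in the inner membrane. Slc25a11, which exchanges oxoglutarate for malate, stood at 319, 364 and 388 CPM in B6 CMD libraries, against 158, 213 and 237 CPM in B6 WT libraries. In 87, Slc25a11 stood at 332, 377 and 348 CPM in CMD libraries, against 148, 228 and 220.4 CPM in WT libraries. For Slc25a11, D2 CMD libraries held 289.7, 185 and 194 CPM and D2 WT libraries 351, 377 and 449 CPM. CMD was above WT in B6 and 87 and below WT in D2, with no overlap. For Slc25a11 the log2 fold changes were 0.81 ± 0.20 in B6, 0.83 ± 0.20 in strain 87 and -0.82 ± 0.20 in D2 (adjusted p = 0.0111, 0.00781 and 0.00966). Slc25a12, the aspartate-glutamate carrier of muscle and brain, fell in D2, where it stood at 429, 215 and 289 CPM in D2 CMD libraries, against 504, 559 and 645 CPM in D2 WT libraries, a log2 fold change of -0.87 ± 0.22 (adjusted p = 0.011). In B6, 67 and 87 it changed by -0.01 ± 0.22, -0.03 ± 0.22 and 0.27 ± 0.22, with overlapping libraries, and the difference among strains did not pass (adjusted p = 0.106).

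Levels also differed between strains within a genotype. Among the 4 CMD groups 23 of 31 genes differed (F test, 28.3% of all genes passed). In D2 CMD against B6 CMD, 23 fell and 1, Pcx, rose (10.4% and 11% of all genes). The largest of these were Idh2 (-2.42 ± 0.57, adjusted p = 0.0052), Got1 (-1.65 ± 0.36, adjusted p = 0.0031) and Mdh1 (-1.30 ± 0.22, adjusted p = 0.000482). Neither 67 CMD nor 87 CMD differed from B6 CMD in any of the 31 (2 and 1 genes at an unadjusted p under 0.05 in edgeR, 0% and 0.811% of all genes called). Among the 4 WT groups 6 of 31 differed, where 8.66% of all genes passed. They were Pcx (adjusted p = 0.00425), Slc25a11 (0.00631), Dlst (0.00685), Got2 (0.0108), Mdh1 (0.021) and Ogdh (0.0274). None of these calls held without D2 WT library 21, with adjusted p then 0.0728 to 0.197.

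D2 WT muscle stood above B6 WT muscle in most of these genes. The fold change was above 0 for 29 of 31, with a median of 0.39 against -0.00221 over all genes, and 19 genes had each D2 WT library above each B6 WT library, where 14.6% of all genes did. In the test 4 of 31 rose (2.82% of all genes; 17 at an unadjusted p under 0.05): Pcx (1.32 ± 0.33, adjusted p = 0.0179), Slc25a11 (0.95 ± 0.20, adjusted p = 0.00569), Dlst (0.64 ± 0.16, adjusted p = 0.0146) and Fh1 (0.50 ± 0.15, adjusted p = 0.0485). By group mean, Slc25a11 stood at 392 ± 50.9 CPM in D2 WT and 203 ± 40.4 CPM in B6 WT muscle. Ogdh stood at 1308 ± 68.1 CPM in D2 WT and 969 ± 223 CPM in B6 WT muscle. Myh2 ran higher in D2 WT than in most WT libraries of the other strains, as given above, and its part was not tested. By Y-linked reads all D2 WT libraries were female, while B6 WT library 1, the lowest of its group for 28 of 31 genes, was male. D2 WT library 21 was the highest of its group for 31 of 31. The part of sex and of library 21 in this comparison of D2 WT with B6 WT was not tested. Neither 67 WT nor 87 WT differed from B6 WT in any of the 31 (0 and 1 genes at an unadjusted p under 0.05 in edgeR, 0.0203% and 0.0541% of all genes called).

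**Figure D4:**
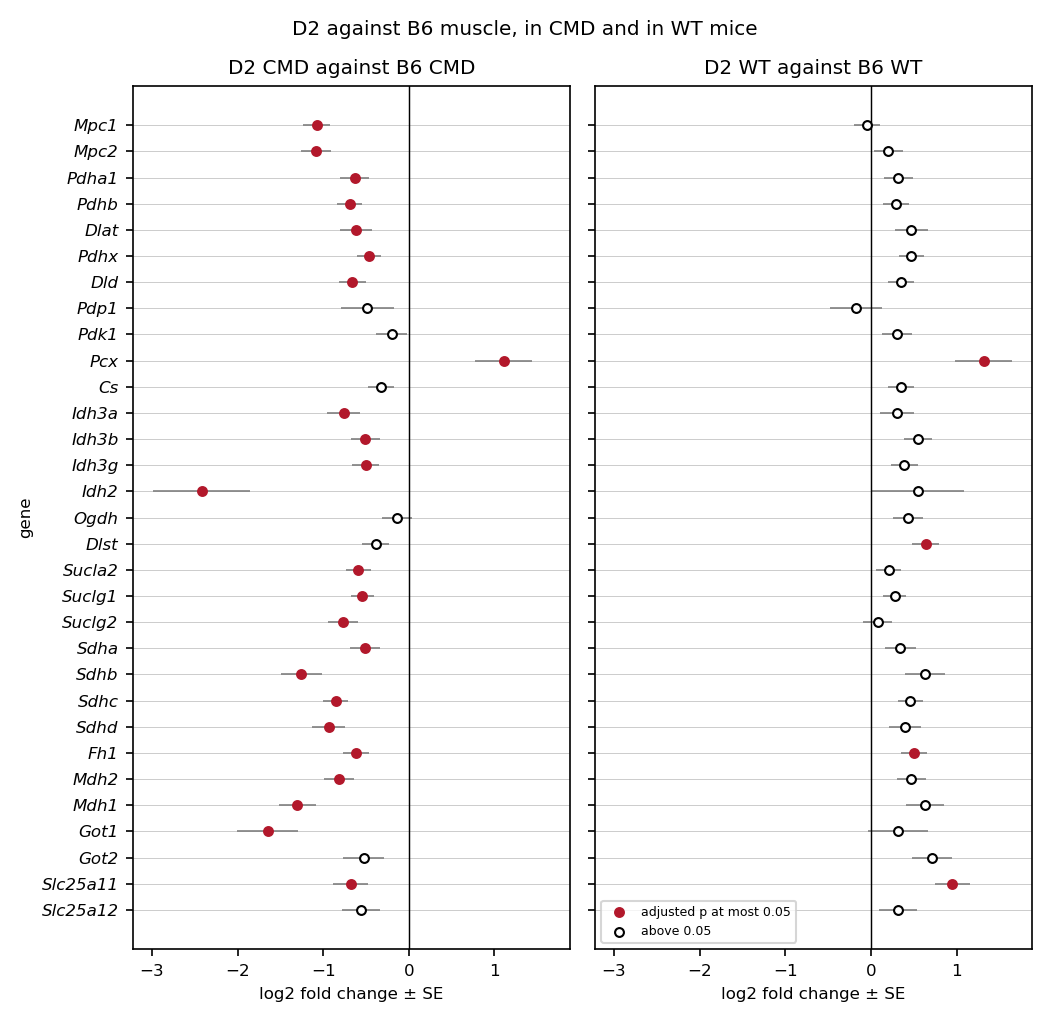
Log2 fold change of D2 CMD against B6 CMD (left) and of D2 WT against B6 WT (right) for each of the 31 genes, with its SE as a bar and filled points past an adjusted p of 0.05. Most points lie left of 0 between the CMD groups and right of 0 between the WT groups, and Pcx lies right of 0 in both.

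Other genes of the pathway were read from a list of 37, of which 36 were tested and Nnt was not analysed here. Of these, 5 rose and 2 fell in B6, 7 rose and 5 fell in 67, 14 rose and 4 fell in 87, and 3 rose and 9 fell in D2, where the shares over all genes were 8.07% and 10.4% in B6, 11.4% and 10.3% in 67, 11.5% and 9.38% in 87, and 11.2% and 9.03% in D2 (medians 0.15, 0.29, 0.35 and -0.36). The largest called changes in B6 were Gpd2 (-1.69), Pdk3 (1.31) and Me1 (-1.28). In 67 they were Ldhb (4.14), Pdk3 (2.17) and Gpd1 (-1.86), and in 87 Ldhb (4.32), Pdk4 (3.98) and Slc25a18 (3.27). In D2 they were Pdk3 (1.18), Me2 (1.14) and Gpd2 (-1.04). Gpd1 and Gpd2 form the glycerol phosphate shuttle, the other route for cytosolic NADH, Me1 and Me2 are malic enzymes, and Ldhb is the lactate dehydrogenase subunit of oxidative tissue. Pdk3 and Slc25a18 were low, at most 2.02 and 0.996 CPM in any library. Pdk4, a kinase that shuts pyruvate dehydrogenase, stood at 7659.5, 624 and 909 CPM in 87 CMD libraries, against 93.6, 114 and 374 CPM in 87 WT libraries, with library 16 far above all others. It changed by 1.03 ± 0.83 in B6, 2.37 ± 0.87 in 67 and -0.13 ± 0.83 in D2, none past the threshold. The CMD effect differed among the strains for 6 of the 36 (4.67% of all genes), among them Mrps36, Ldhb, Ldhd, Sdhaf2 and Sdhaf4.

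Regulators of mitochondrial genes were read from a list of 15. Of these, 2 rose and 2 fell in B6, 3 rose in 67, 4 rose in 87 and 5 fell in D2. The B6 counts are near the shares over all genes, 8.07% higher and 10.4% lower. Over all genes 11.4% rose in 67, 11.5% rose in 87 and 9.03% fell in D2. Ppargc1a encodes the coactivator PGC-1alpha. It stood at 46.9, 44.8 and 60.6 CPM in 87 CMD libraries, against 19.9, 16 and 21.1 CPM in 87 WT libraries. In D2 it stood at 19.5, 9.64 and 12.9 CPM in CMD libraries, against 27.2, 27.1 and 31.1 CPM in WT libraries. CMD was above WT in 87 and below WT in D2 without overlap, with log2 fold changes of 1.42 ± 0.27 and -1.03 ± 0.27 (adjusted p = 0.00149 and 0.0129). It rose in 67 (0.86 ± 0.27, adjusted p = 0.028) and changed by 0.21 ± 0.27 in B6. Esrra, an estrogen-related receptor that works with this coactivator, rose in B6 (0.55 ± 0.16, adjusted p = 0.0234) and 87 (0.86 ± 0.16, adjusted p = 0.00136) and fell in D2 (-0.57 ± 0.16, adjusted p = 0.0184). Its relative Esrrg rose in B6, 67 and 87 (2.03, 3.56 and 3.72). Gabpa, Tfam and Tfb2m fell in D2 (-0.57, -0.52 and -0.65). Tfam and Tfb2m encode factors of mitochondrial DNA transcription. The effect differed among strains for Ppargc1a, Esrra, Esrrg and Esrrb, 4 of 15 (4.67% of all genes). Reads from genes of the mitochondrial genome made up 20.5% to 21.8% of exon reads in B6 CMD and 9.01% to 13.7% in B6 WT libraries. They made up 14.9% to 18.8% in 67 CMD and 10.98% to 12.3% in 67 WT libraries, and 15.2% to 23.2% in 87 CMD and 9.67% to 14.1% in 87 WT libraries. In D2 they made up 9.16% to 12.4% in CMD and 13.2% to 15.7% in WT libraries. The CMD libraries were above WT in B6, 67 and 87 and below WT in D2, and how these shares relate to the nuclear genes was not tested.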

How the data were processed

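RNA of 24 left quadriceps was prepared as stranded poly(A) libraries and read in pairs of 58 bases on an Illumina NextSeq, per the labels. The authors deposited, per library, counts of exon reads per gene and TPM values, per the file headers. The build is GRCm39, per the submitters' processing notes. Which aligner and counter were used is not given in the sources used here. Groups come from the labels (3 mice in each of 8), and p-values measure the spread between these mice.

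The deposited total exon read counts were joined by gene identifier, filtered by group (count minimum 10, total minimum 15), scaled by TMM (factors 0.885 to 1.33) and fitted over all 8 groups with edgeR 4.0.16 (R 4.3.3, limma 3.58.1). Quasi-likelihood tests were adjusted over 14789 genes by the Benjamini-Hochberg method, with a threshold of 0.05. The SE is the log2 fold change divided by the root of F. CPM use TMM, and TPM were used only for levels between genes. Scripts were tested on simulated data.

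The 31 genes and all lists were chosen with earlier results of these data known. Library values are given for the 3 called genes with the largest change per strain, those called in all 4 strains, the 4 with the smallest p for a difference among strains, the 6 that differed among WT groups, and the genes called in opposite directions, in the strains of those calls. Other pathway genes are named by their 3 largest called changes per strain, with Pdk4. A further gene of that list is not reported here.

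Alternatives were sex as labelled or from Y-linked reads, DESeq2 1.42.0, its size factors, no filter, unique reads, single strains, omission of libraries 16 and 23, and omission of each library. Library totals without TMM, omission of libraries 22 and 24, omission of 23 with sex from Y-linked reads, and only female libraries were added after seeing the data.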

Additional observations from a re-analysis of the deposited data

Results flagged for a closer look

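The CMD effect differed among the 4 strains for 26 of the 31 genes (edgeR F test, adjusted over all genes), by a test of the difference itself. For pyruvate entry the adjusted p was 0.00745 for Mpc1, 0.0048 for Mpc2, 0.00645 for Pdha1, 0.00682 for Pdhb, 0.0208 for Dlat, 0.0113 for Pdhx and 0.00506 for Dld. For the first steps of the cycle it was 0.0366 for Cs, 0.0423 for Idh3a, 0.00585 for Idh3b, 0.00645 for Idh3g and 0.00929 for Idh2. For the next steps it was 0.0064 for Dlst, 0.00929 for Sucla2, 0.00929 for Suclg1 and 0.0243 for Suclg2. From succinate to oxaloacetate it was 0.021 for Sdha, 0.00401 for Sdhb, 0.00347 for Sdhc, 0.0084 for Sdhd, 0.00401 for Fh1 and 0.00441 for Mdh2. For the shuttle it was 0.00218 for Mdh1, 0.00929 for Got1, 0.0109 for Got2 and 0.00487 for Slc25a11. In each of these genes the D2 fold change was below 0.

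Reads of Y-linked genes, which are outside the 31 genes and enter 3 alternatives only as a sex term or a choice of libraries, appeared in 2 D2 CMD libraries labelled female, 4927 in library 22 and 4858 in library 24.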

How the results depend on the processing

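No call of CMD against WT within a strain changed sign for the 31 genes in any alternative. The count in B6 was 13 and became 20 without TMM, 21 without library 23 with sex from Y-linked reads, and 4 among female libraries, with 6 to 19 when 1 library was left out. In 67 it was 10 and became 6 without a filter and 19 without TMM, with 2 to 11 when 1 library was left out. In 87 it was 24 and became 6 from that strain's libraries alone, with 21 to 25 when 1 library was left out. In D2 it was 26 and became 16 with sex from Y-linked reads, 14 without libraries 16 and 23, 19 without libraries 22 and 24, 7 from that strain's libraries alone, 13 without TMM, and 1 without library 23 with sex from Y-linked reads, with 12 to 28 when 1 library was left out. The count among WT groups was 6 and became 10 with sex as labelled, 13 without libraries 16 and 23, 17 without TMM, 12 without libraries 22 and 24, and 15 in DESeq2, with 0 to 13 when 1 library was left out. Among CMD groups it was 23 and became 15 without libraries 16 and 23, with 19 to 26 when 1 library was left out. The difference among strains was called for 26 and kept 21 to 27 calls when 1 library was left out. The mean of the 4 CMD effects averages strains with opposite effects, so it describes no single strain. It was called for 17 of 31 genes, 15 higher and 2 lower, where 3761 of 14789 genes were higher and 3461 lower. That count was 14 to 20 when 1 library was left out. The cause of these moves was not tested, and fewer libraries enter the fits that leave some out. Without library 23, sex from Y-linked reads and CMD could not be told apart within D2. Without TMM the higher and lower calls over all genes were 1541 and 903 in B6 (1193 and 1531 with TMM), 2879 and 554 in 67 (1690 and 1520) and 3179 and 408 in D2 (1651 and 1335). From the libraries of 87 alone, 355 of 13689 genes were called in all, against 3083 of 14789 in the main fit. From those of D2 alone it was 2281 of 13910, against 2986 of 14789. No paired analysis was run, because the groups hold different mice and the sample titles pair none of them.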
